A study of Mus musculus with 6 samples.

Results

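Polycomb proteins silence genes through marks on histones, and the genes described here are 9 that encode the core of this machinery and the enzymes that undo its main mark: Ezh1, Ezh2, Eed, Suz12, Bmi1, Ring1, Rnf2, Kdm6a and Kdm6b. They were taken by symbol from the 48397 rows of the count table, and all 9 were found and passed the filter on low counts that left 12312 genes for testing. Their RNA was measured in stage 0 iNKT cells, the earliest thymic precursors of invariant natural killer T cells, to ask whether weaker TCR signaling touches the program of these cells from the start. BALB/c mice carried wild-type Zap70, a kinase directly downstream of the TCR, and SKG mice carried a hypomorphic Zap70 mutation on the same BALB/c background, in all cells and from birth. Mice of both genotypes were 8 to 10 weeks old and otherwise untreated as far as the labels state. There were 3 libraries per genotype, each from about 1000 cells that bound the PBS57-CD1d tetramer, were CD24+ and CD69+ but CD44- and CD8-, had little or no CD4, and came from thymi of 3 mice pooled before the sort, so that a replicate is a pool.

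PRC2 places methyl groups on lysine 27 of histone H3 through Ezh1 or Ezh2, and it needs Eed and Suz12 to be active. PRC1 ubiquitinates histone H2A through Ring1 or Rnf2, which work with a Pcgf protein such as Bmi1, and its Cbx subunits can bind the PRC2 mark. Kdm6a and Kdm6b are demethylases that remove this mark. In mice, loss of Ezh2 enlarges the PLZF-expressing iNKT population, and the Kdm6 demethylases are needed for iNKT cells to mature, which is why these genes are of interest in the first committed iNKT precursors.

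The promoters of Eed and Suz12, partners within PRC2, are shown because they make a contrast in base composition. They are also the 2 of 9 members whose libraries did not overlap between the genotypes, against 13.9% of all genes tested. EdgeR called neither gene, and a link between base composition and expression was not tested. The sequences are from RefSeq (GRCm38.p6), where 8 of the 9 members had an entry, the exception being Kdm6b. Each is the 250 bases before the start site, 5′ to 3′ on the gene's strand, with matches to the motifs searched in capitals. The Eed promoter is chr7:89980977-89981226 on the minus strand and the Suz12 promoter chr11:79992856-79993105 on the plus strand.
Eed: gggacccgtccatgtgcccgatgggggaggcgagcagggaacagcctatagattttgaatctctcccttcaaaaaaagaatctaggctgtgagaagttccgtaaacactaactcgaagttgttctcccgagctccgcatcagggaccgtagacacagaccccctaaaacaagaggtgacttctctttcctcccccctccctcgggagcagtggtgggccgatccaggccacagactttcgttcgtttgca
Suz12: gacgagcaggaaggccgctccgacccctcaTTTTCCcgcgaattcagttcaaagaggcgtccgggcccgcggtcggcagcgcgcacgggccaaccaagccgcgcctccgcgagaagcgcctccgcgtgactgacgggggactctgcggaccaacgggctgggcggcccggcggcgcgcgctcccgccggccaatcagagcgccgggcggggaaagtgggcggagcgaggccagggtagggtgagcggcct
Including the 50 bases after the start site, the Suz12 promoter held 41 CpG dinucleotides and had 71.0% GC, while that of Eed held 17 and had 54.7% GC. The 8 member promoters ranged from 17 to 41 CpG and from 54.7% to 74.0% GC, against medians of 7 CpG and 52.7% GC over 32851 mouse promoters of the same length.

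Both strands of these 300-base promoters were searched for 3 short motifs, chosen because the study concerns Egr and NFAT binding and because Ezh2 is a known E2F target. The Egr motif GCGNGGGCG was found in the promoters of Ring1 and Rnf2, and in 5.6% of all promoters. The E2F motif TTTNGCGC was found in that of Ezh2 alone among the members, and in 1.4% of all promoters. The NFAT motif GGAAAA was found in those of Bmi1 and Suz12, and in 23.4% of all promoters. In Suz12 it reads TTTTCC on the strand shown, with its first base 220 bases before the start site, and a second match lies after the start site, outside the bases shown. The Ezh2 match also lies after the RefSeq start site, beginning at base 4 counted from it. The gene position given for Ezh2 below is from another annotation, in which the gene starts further upstream, at 47595341. The matches of the PRC1 ligases and of Ezh2 are shown in windows of 29 bases, with the match in capitals.
Ring1, chr17:34024699-34024727, minus strand: cgcgtggcgcGCGAGGGCGgtgacgtctc
Rnf2, chr1:151501053-151501081, minus strand: gtagccacggGCGGGGGCGgagccagggc
Ezh2, chr6:47595009-47595037, minus strand: ggttgctgcgTTTGGCGCtcggtccggtc
A match is a run of letters and was not tested as a binding site.

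The reads counted on genes ranged from 37176544 to 43115544 per library, and the genes with at least 10 reads from 10835 in SKG replicate 3 to 14791 in SKG replicate 1. Expression is given in TMM-normalized CPM, the reads of a gene per 1000000 reads of its library, with the library total adjusted for composition. The sorted phenotype was checked on its own markers. Cd69 averaged 353 ± 39.9 CPM in BALB/c (SD, n = 3 libraries), compared with 193 ± 50.4 (SD, n = 3) in SKG, and Egr2, which TCR signals induce, at 1351 ± 230.1 (SD, n = 3) and 777 ± 249 (SD, n = 3), with edgeR adjusted p of 0.686 and 0.834. Cd24a, whose protein defines the gate, lay the other way, at 25.1 ± 24.0 CPM in BALB/c (SD, n = 3) against 70.4 ± 33.4 (SD, n = 3) in SKG (log2 fold change 1.49, edgeR adjusted p = 0.959). Cd3e had 33039 to 45208 reads per library and Cd44 4 to 536. Reads on Cd8a, which the gate excludes as a protein, numbered 922 to 4985. The summed level of 8 DP thymocyte markers ranged from 67.7 to 437 CPM in BALB/c and from 89.1 to 223 in SKG, and that of 7 myeloid markers from 10.1 to 66.2 and from 2.56 to 112, with Cd14 and S100a9 at 0 reads throughout. Most of the 2 highest myeloid sums was Lyz2 (53.7 CPM for BALB/c replicate 1, 107 for SKG replicate 3), whereas Fcer1g was at 10.9 ± 1.45 CPM (SD, n = 3) in BALB/c and lower in each SKG library, at 2.80 ± 1.82 (SD, n = 3), with adjusted p of 0.952 by edgeR and 0.0611 by DESeq2. Sums of 6 genes each ranged from 1.73 to 6.84 CPM in BALB/c and from 3.11 to 8.38 in SKG for B cells, from 0.0270 to 69.7 and from 0.0515 to 0.691 for erythroid cells, and from 28.1 to 41.4 and from 10.0 to 86.9 for thymic epithelium, of which Epcam made up 86.9 CPM in the highest library. The erythroid gene Alas2 and the epithelial genes Krt5 and Psmb11 were at 0 reads. In bulk RNA, fewer cells of a type and less RNA per cell cannot be told apart.

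None of the 9 genes passed the test between SKG and BALB/c. A gene was called at a Benjamini-Hochberg adjusted p under 0.1 with a fold change of 1.5 or more in edgeR's quasi-likelihood test. By this rule 0 of 9 members were called, and 0% of all genes tested were. Adjusted p ranged from 0.880 for Eed to 0.999 for Ezh1. At an unadjusted p under 0.05 there was 1 member, Eed, against 5.45% of all genes tested (3.07% higher in SKG and 2.38% lower). All BALB/c libraries lay on one side of all SKG libraries for 2 of 9 members, Eed and Suz12, in opposite directions, against 13.9% of all genes (6.77% higher in SKG and 7.12% lower). DESeq2 without shrinkage called Eed (adjusted p = 0.0929), in a test that called 2.58% of genes, and limma-voom called 0 members, with 1 at an unadjusted p under 0.05. An exact permutation test of 3 libraries against 3 reaches no p lower than 0.1, so none was run on the members.

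**Figure D1:**
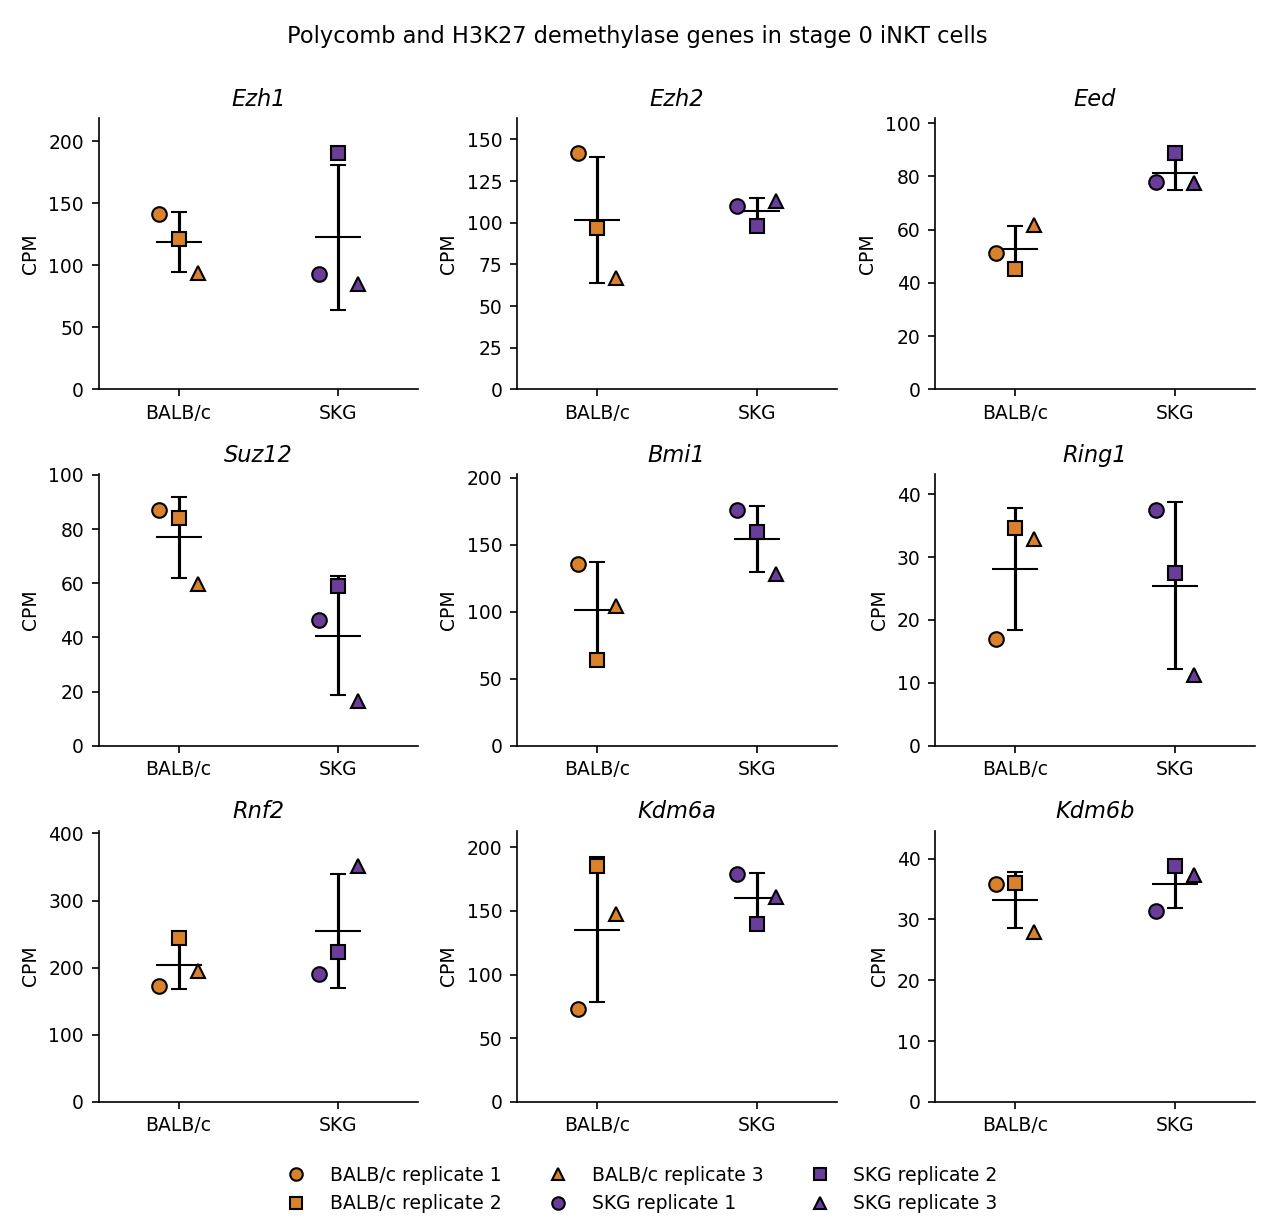
Expression of the 9 genes in each library, in TMM-normalized CPM on linear axes from 0. Symbols are libraries, horizontal bars are means and whiskers the SD of 3 libraries per genotype. The BALB/c and SKG libraries are apart for Eed and, by a narrow margin, for Suz12, and overlap for the other members.

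Ezh2 and Ezh1, the alternative catalytic subunits of PRC2, differed less between the genotypes than among the libraries of one genotype. Ezh2, whose GRCm38 position is chromosome 6, 47530139 to 47595341, was at 142, 96.9 and 66.8 CPM in the BALB/c replicates 1 to 3 and at 110, 98.1 and 113 in the SKG replicates. The BALB/c libraries enclosed all SKG libraries, which lay close together. The means were 102 ± 37.6 CPM (SD, n = 3) and 107 ± 8.00 (SD, n = 3), a log2 fold change of 0.07 (standard error, SE, 0.30, edgeR adjusted p = 0.996). The 95% interval of the fold change ran from 0.640 to 1.73, so that a change of 1.5-fold in either direction lies within it.

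Ezh1, on chromosome 11 from 101191115 to 101226463, was at 142, 122 and 93.7 CPM in BALB/c and at 92.8, 190 and 85.4 in SKG. SKG replicate 2 was the highest of all libraries and the other SKG libraries were the lowest. The log2 fold change was 0.05 (SE 0.36, edgeR adjusted p = 0.999), with an interval of the fold change from 0.569 to 1.88. Without SKG replicate 2 the log2 fold change was -0.41 and without SKG replicate 3 it was 0.27, so the sign of this difference rested on single libraries.

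Eed, which reads the methyl mark and activates PRC2, had the lowest p among the members. The gene lies on chromosome 7 from 89954654 to 89980983, and 261 bp of its exons overlap E230029C05Rik on the other strand, which had 295 reads in the 6 libraries against 15977 for Eed. It was at 51.4, 45.3 and 61.9 CPM in BALB/c and at 77.9, 88.6 and 77.5 in SKG, so that each SKG library was above each BALB/c library. The means were 52.9 ± 8.39 (SD, n = 3) and 81.3 ± 6.34 (SD, n = 3), a 1.54-fold difference with a 95% interval from 1.02 to 2.31 (log2 fold change 0.62, SE 0.25). The unadjusted p was 0.0410 and the adjusted p 0.880 over all genes in edgeR. With 1 library left out, the log2 fold change stayed between 0.51 and 0.76, and the unadjusted edgeR p lay between 0.0465 (without BALB/c replicate 3) and 0.110 (without SKG replicate 2).

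Suz12, the subunit that holds PRC2 together, lay in the other direction. It is on chromosome 11 from 79993106 to 80034123 and was at 87.1, 83.9 and 59.8 CPM in BALB/c and at 46.4, 59.0 and 16.6 in SKG. SKG replicate 3 was far below the rest, whereas SKG replicate 2 and BALB/c replicate 3 were nearly equal. SKG replicate 3 also had the fewest detected genes (10835) and the highest myeloid sum (112 CPM), whose part in the values of Suz12 was not tested. The means were 76.9 ± 14.9 (SD, n = 3) and 40.7 ± 21.8 (SD, n = 3), a log2 fold change of -0.92 (SE 0.49, unadjusted p = 0.106 and adjusted p = 0.959 by edgeR). Without SKG replicate 3 it was -0.53 and without SKG replicate 2 it was -1.28. When the libraries were scaled with median-ratio factors, the Suz12 libraries overlapped between the genotypes.

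**Figure D2:**
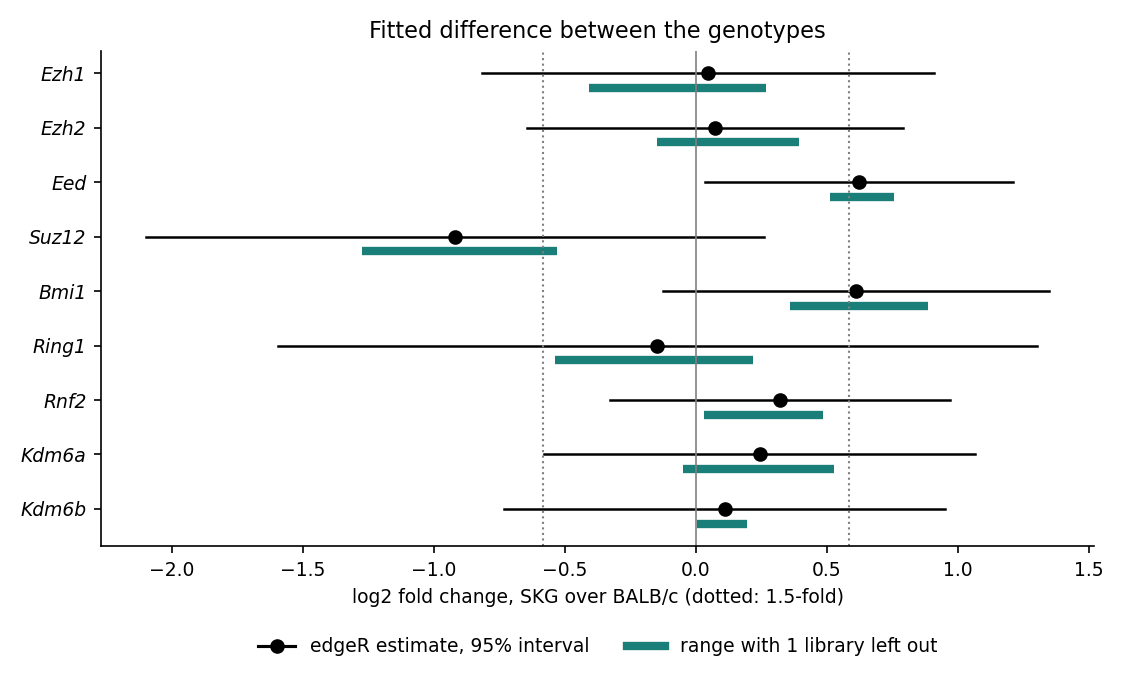
Log2 fold change of each member, SKG over BALB/c, from edgeR. Black points and lines are the estimate and its 95% interval, green bars the range of the estimate when each of the 6 libraries was left out in turn, and dotted lines mark 1.5-fold. The interval of Eed alone lies on one side of 0, and the green bars of Ezh1, Ezh2, Ring1 and Kdm6a cross it.

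Among the PRC1 genes, Rnf2 and Ring1 encode alternative E3 ligases of the complex. Rnf2 (chromosome 1, 151458004 to 151500955) was at 173, 245 and 195 CPM in BALB/c and at 191, 223 and 352 in SKG. SKG replicate 3 stood above the other libraries, among which the genotypes were mixed. As for Suz12, the part of its few detected genes and its marker sums was not tested. Over 158 bp, its exons overlap those of the expressed gene Trmt1l on the other strand. The log2 fold change was 0.32 (SE 0.27, edgeR adjusted p = 0.991) and 0.03 without SKG replicate 3.

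Ring1, on chromosome 17 from 34020792 to 34024680, was at 17.0, 34.6 and 32.9 CPM in BALB/c and at 37.6, 27.5 and 11.3 in SKG. The low values were those of BALB/c replicate 1 and SKG replicate 3, 1 library of each genotype. These are also the libraries with the fewest genes at 10 reads or more (11415 and 10835) and the highest summed markers of myeloid cells (66.2 and 112 CPM), DP thymocytes (437 and 223 CPM) and B cells (6.84 and 8.38 CPM), and the part of any of these in the values of Ring1 was not tested. The log2 fold change was -0.15 (SE 0.60, edgeR adjusted p = 0.997), and the interval of the fold change, 0.331 to 2.46, was the widest among the members.

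Bmi1, the Pcgf subunit of canonical PRC1 and a repressor of the Cdkn2a locus, lies on chromosome 2 from 18677018 to 18686629. It was at 136, 63.6 and 104 CPM in BALB/c and at 176, 160 and 128 in SKG. The lowest SKG library was below the highest BALB/c library, and the others were separated by genotype. The means were 101 ± 36.1 (SD, n = 3) and 155 ± 24.5 (SD, n = 3), a log2 fold change of 0.61 (SE 0.31, unadjusted p = 0.0897 and adjusted p = 0.952 by edgeR). It was 0.36 without BALB/c replicate 2 and 0.89 without BALB/c replicate 1.

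The demethylase Kdm6a, on chromosome X from 18162575 to 18279936, was at 73.1, 185 and 147 CPM in BALB/c and at 179, 140 and 161 in SKG. BALB/c replicate 1 lay below all other libraries, which were mixed between the genotypes. That library had 11415 detected genes, the fewest after SKG replicate 3. It also had the highest summed markers of DP thymocytes (437 CPM) and erythroid cells (69.7 CPM). The part of these in the values of Kdm6a was not tested. The log2 fold change was 0.24 (SE 0.34, edgeR adjusted p = 0.991), and -0.05 without BALB/c replicate 1. Kdm6a escapes X inactivation, and the labels do not give the sex of the pooled mice. Xist had 4838 to 11401 reads in every library, whereas the 4 Y-linked genes examined, among them the Kdm6a homologue Uty, had 1 read in all libraries together. The part of sex in the values of Kdm6a was not tested.

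Kdm6b, on chromosome 11 from 69398508 to 69413675, is the inducible demethylase of the pair. It was at 35.8, 35.9 and 27.9 CPM in BALB/c and at 31.4, 38.8 and 37.3 in SKG, the narrowest range of any member, 1.39-fold from the lowest to the highest library. The means were 33.2 ± 4.59 (SD, n = 3) and 35.8 ± 3.93 (SD, n = 3), a log2 fold change of 0.11 (SE 0.35, edgeR adjusted p = 0.991). The interval of the fold change, from 0.602 to 1.93, was wide for so narrow a spread, and edgeR takes the dispersion of a gene in part from all genes.

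The members differed widely in how well their libraries repeated. The coefficient of variation within a genotype, pooled over both, was 11.1% for Eed and 12.4% for Kdm6b, and between 24.1% for Bmi1 and 43.4% for Ring1 for the others. Of the 8378 genes with a mean of at least 10 CPM, whose median was 31.9%, 4.91% had a lower value than Eed and 6.99% a lower value than Kdm6b. Counting error alone would give 1.05% to 3.05% at the mean reads of the members. The reads include PCR copies, and the latter values cover counting error only.

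Levels were compared between genes per length, as CPM per kb of merged exons. The merged exons are those of all annotated transcripts of a gene, from 2 transcripts for Kdm6b to 15 for Ezh2. This length can exceed that of a single mRNA by unequal amounts, so the order of genes is approximate. Rnf2 was the highest member in both genotypes, at 49.5 ± 8.90 CPM per kb in BALB/c (SD, n = 3) against 61.9 ± 20.6 (SD, n = 3) in SKG, and Kdm6b the lowest, at 4.77 ± 0.660 and 5.15 ± 0.565. Bmi1 came second in both, at 25.5 ± 9.08 and 38.9 ± 6.17. In BALB/c, Kdm6a, Ezh1, Suz12, Ezh2 and Eed followed between 16.1 and 13.8 CPM per kb, with overlapping libraries at each step, and Ring1 stood apart at 8.68. In SKG, Eed followed Bmi1 at 21.2, ahead of Kdm6a, Ezh1 and Ezh2, whose libraries overlapped from one to the next, while Suz12 was at 8.23 beside Ring1 at 7.84. The libraries of Rnf2 and Ring1 thus did not overlap in either genotype, nor did those of Kdm6a and Kdm6b, whereas those of Ezh1 and Ezh2 did.

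**Figure D3:**
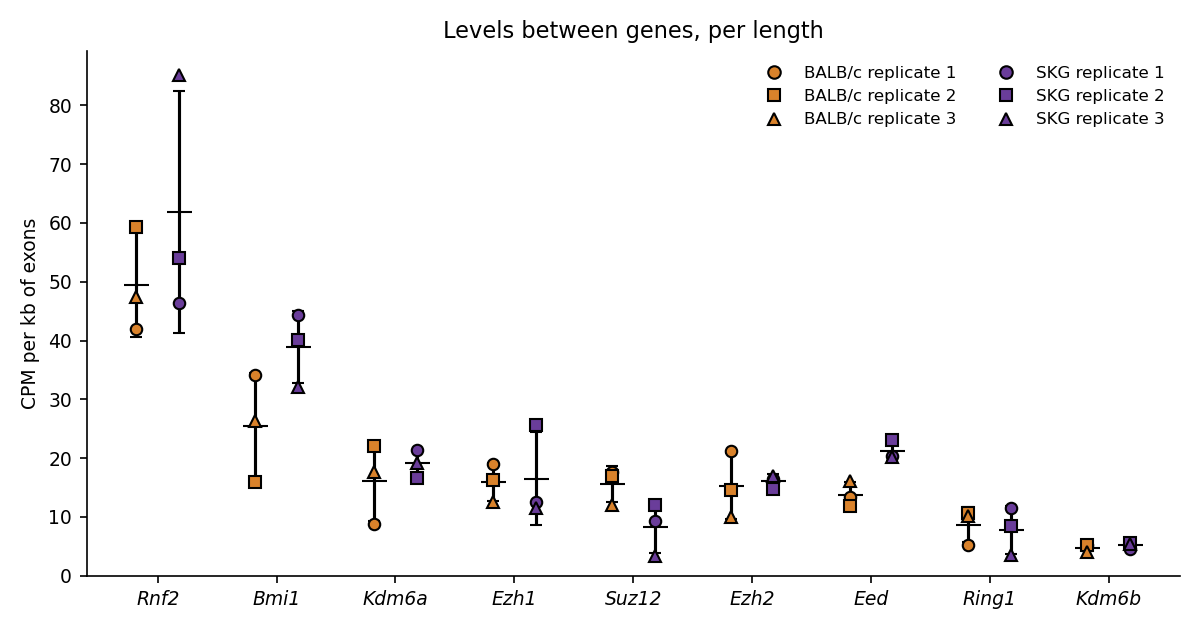
Level of each member per length, in CPM per kb of merged exons, ordered by the BALB/c mean. Symbols are libraries, horizontal bars means and whiskers the SD of 3 libraries. Rnf2 and Bmi1 are at the top and Kdm6b at the bottom in both genotypes, and Suz12 and Eed change places.

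Ratios of related genes within a library do not depend on how libraries are scaled, and they are given as descriptions, without a test, because the pairs were formed with the values known. The ratio of Eed to Suz12 per length was 0.762, 0.697 and 1.34 in BALB/c and 2.17, 1.94 and 6.03 in SKG. The genotypes did not overlap, and SKG replicate 3, where Suz12 was low and the fewest genes were detected, stood highest. The ratio of Ezh2 to Ezh1 was 1.11, 0.888 and 0.794 in BALB/c and 1.32, 0.574 and 1.48 in SKG, with the genotypes overlapping. Kdm6a exceeded Kdm6b in each library, by 1.70-fold to 4.38-fold in BALB/c and 2.99-fold to 4.74-fold in SKG. Rnf2 exceeded Ring1 by 4.67-fold to 8.00-fold in BALB/c and by 4.0-fold to 24.6-fold in SKG, where the highest value was that of SKG replicate 3. Since Eed was higher and Suz12 lower in each SKG library than in each BALB/c library, their ratio had to separate the genotypes, and it restates those values.

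**Figure D4:**
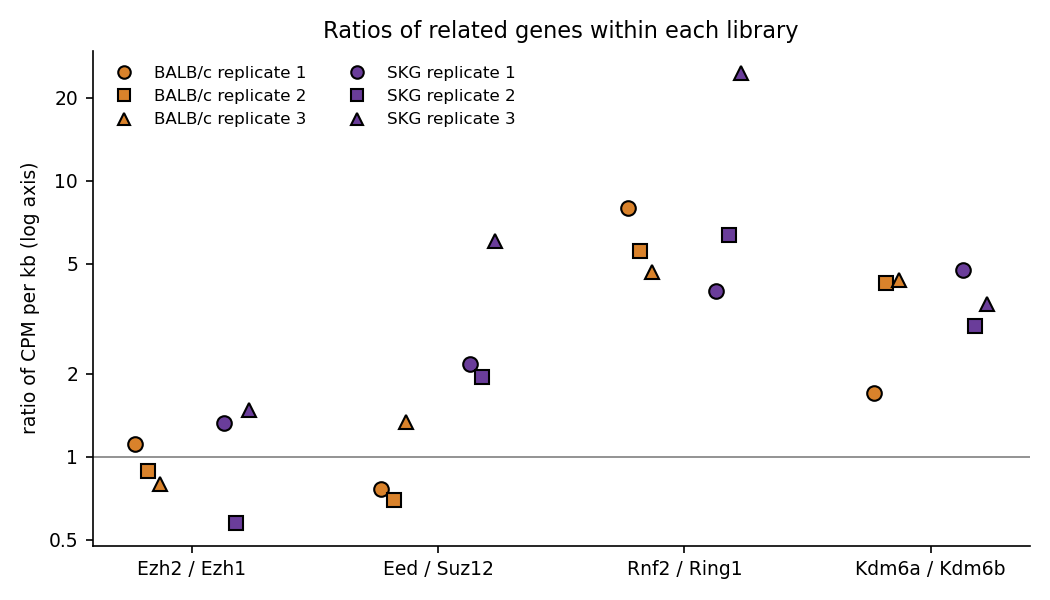
Ratio of CPM per kb between related genes within each library, on a log axis. Symbols are libraries, and the line marks equal levels. The Eed to Suz12 ratio lies from 0.697 to 1.34 in BALB/c and from 1.94 to 6.03 in SKG, and the other ratios overlap between the genotypes.

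Other genes of the machinery were examined from lists of 42 genes, of which 39 could be tested. Of these, 0 were called by edgeR, limma-voom or DESeq2. At an unadjusted p under 0.05 there were 2, or 5.13%, close to the 5.45% of all genes, and the genotypes did not overlap for 5, or 12.8%, against 13.9% of all genes. The median log2 fold change was -0.03, beside -0.02 over all genes tested, with 18 genes above 0 and 21 below. The members had a median of 0.11, with 7 of 9 above 0, beside 6030 of all 12312 genes tested.

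The 2 genes with an unadjusted p under 0.05 were PRC1 subunits. Cbx2, a reader of the PRC2 mark, was at 14.4, 3.96 and 30.3 CPM in BALB/c and at 75.9, 69.3 and 52.2 in SKG. Its SD was 13.3 CPM in BALB/c and 12.2 in SKG, around means of 16.2 and 65.8, and its libraries did not overlap (log2 fold change 2.02, SE 0.72, unadjusted p = 0.0282 and adjusted p = 0.834 by edgeR). Bcor, of a noncanonical PRC1, was at 293, 307 and 212 CPM in BALB/c and at 396, 361 and 441 in SKG (log2 fold change 0.56, SE 0.19, unadjusted p = 0.0212 and adjusted p = 0.834 by edgeR). The median of the 19 PRC1 genes was 0.35, with 11 above 0. Rybp (log2 fold change 1.22) and Cbx8 (-1.19) also had libraries that did not overlap, in opposite directions. They are named because of that count, after their values were seen, and neither was called (edgeR, adjusted p = 0.951 and 0.952).

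In the remaining lists no gene had an unadjusted p under 0.05, and the gene with the lowest p of each is given. Of 7 tested PRC2 subunits outside the members (median -0.03), it was Aebp2, at 55.6 ± 12.1 CPM in BALB/c (SD, n = 3) against 87.3 ± 26.5 (SD, n = 3) in SKG. Of 3 tested genes of the H2A deubiquitinase that opposes PRC1 (median -0.08), it was Asxl1, at 54.6 ± 31.0 (SD, n = 3) and 32.6 ± 3.90 (SD, n = 3). Of 10 tested Kdm6a partners and H3K27 acetyltransferases (median -0.12), it was the acetyltransferase gene Crebbp, at 93.4 ± 32.5 (SD, n = 3) and 59.2 ± 6.92 (SD, n = 3), the remaining gene whose libraries did not overlap. Adjusted p were 0.953, 0.977 and 0.952 in edgeR.

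**Figure D5:**
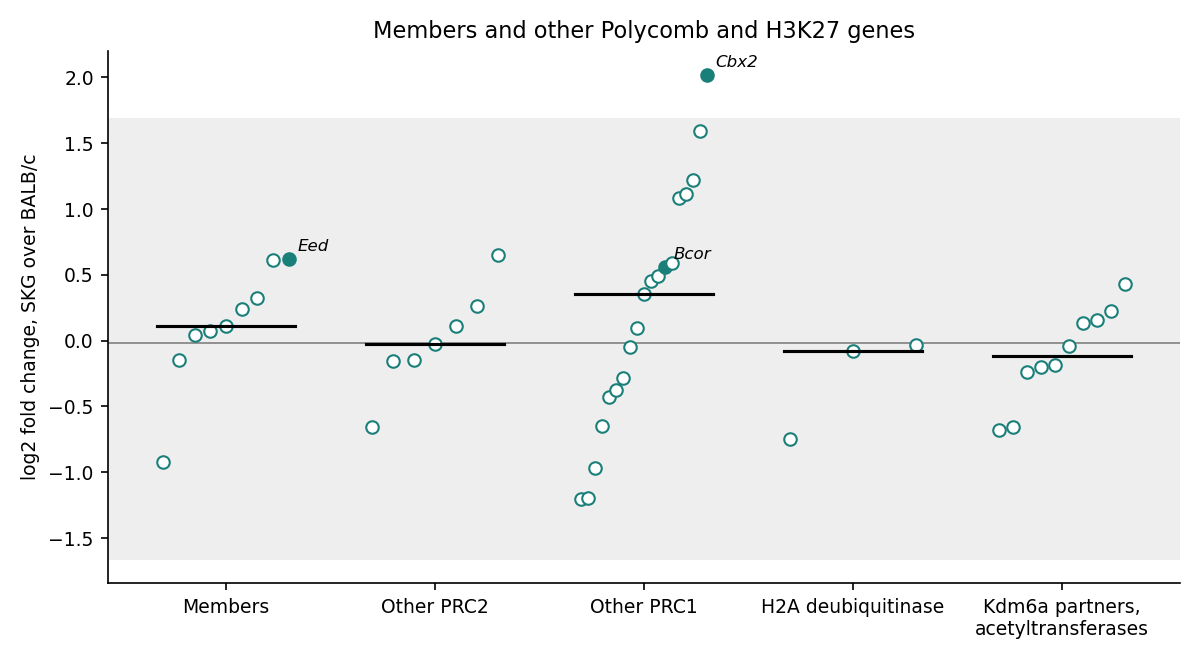
Log2 fold change, SKG over BALB/c, of the 9 members and the 39 other genes. Points are genes, filled where the unadjusted edgeR p is under 0.05, black bars are list medians, the grey line is the median of all genes and the band their 5% to 95% range, from -1.66 to 1.68. Cbx2 is the single gene outside the band.

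Genes known to lie under Polycomb control in T cells were mostly silent in both genotypes. Of 12 such genes, 4 passed the filter on low counts. Tbx21, Eomes and Cdkn2b had 0 reads in each of the 6 libraries, which allows up to 0.0807 CPM (3 reads) in the shallowest as far as counting error goes, and Cdkn2a had 1 read in all. Zbtb16, which encodes PLZF, was at 151 ± 28.0 CPM in BALB/c (SD, n = 3) against 119 ± 41.8 (SD, n = 3) in SKG (log2 fold change -0.34, SE 0.30, edgeR adjusted p = 0.991), the lowest p of the 4. The summed level of 14 proliferation genes, with which Ezh2 usually moves, ranged from 1523 to 1886 CPM in BALB/c and from 1266 to 1678 in SKG. Some genes of the list varied far more between libraries than this sum. In BALB/c the sum and Ezh2 were both highest in replicate 1 and lowest in replicate 3. In SKG, both were lowest in replicate 2 (98.1 CPM for Ezh2 and 1266 for the sum). There the sum was highest in replicate 1, and Ezh2 was nearly equal in replicates 1 and 3, at 110 and 113 CPM. The part of proliferation in the values of Ezh2 was not tested. Mcm2 was the 1 gene of that list with an unadjusted p under 0.05, at 470 ± 76.9 CPM (SD, n = 3) and 341 ± 23.2 (SD, n = 3), with libraries that did not overlap (adjusted p = 0.834 from edgeR).

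The genes most similar to the best studied members over the 6 libraries were found by the Pearson correlation of log2 CPM among 8377 genes with a mean of at least 10 CPM. For Ezh2 they were Rn18s-rs5, Csnk2a1 and Jakmip1 (r = 0.984, 0.983 and 0.983), for Kdm6a Primpol, Zfp938 and Sufu (r = 0.996, 0.995 and 0.995), and for Kdm6b Tgfbr2, Man1a and Elk4 (r = 0.977, 0.967 and 0.964). All points of such a correlation come from the same 6 libraries, and the highest of 8377 values over 6 points is high for almost any gene.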

How the data were processed

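RNA of stage 0 iNKT cells was sequenced by the authors in 50-nt single reads, aligned to GRCm38 with HISAT2 2.1.0 without regard to strand, and counted over exons of Ensembl genes with featureCounts (Subread 1.4.4), using alignments with a mapping quality of 10 or more. The deposited table holds raw counts per gene symbol, unfiltered. The second deposited table holds the authors' DESeq2 1.14.1 comparison and was not used. The paper and the labels name different amplification kits. Counts of all 6 libraries entered one fit in R 4.3.3 with edgeR 4.0.16: filterByExpr, TMM factors and the quasi-likelihood F test over 12312 genes. Standard errors are the absolute log2 fold change over the square root of F, and 95% intervals use edgeR's total degrees of freedom. DESeq2 1.42.0 and limma 3.58.1 (voom) were alternatives. The fits were run on simulated counts with changes far larger than the 1.5-fold threshold, which does not show their power for smaller changes here. Positions and merged exon lengths come from GENCODE M21 (GRCm38), a later annotation than the authors', so levels per kb are approximate. Exons of 5 members overlap a gene on the other strand, over 2.61% to 6.82% of their length, among them Rnf2 with the expressed gene Trmt1l, and without strand such reads cannot be assigned. The replicate numbers of the titles gave residual correlations from -0.145 to -0.00962 between libraries, and those of the descriptions from -0.0384 to 0.00289, so libraries were not paired.

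The members and lists were chosen with earlier results of these data known. Named genes are the members, the genes of each list with an unadjusted p under 0.05 or otherwise the lowest p, the marker genes, and the 3 genes most like Ezh2, Kdm6a and Kdm6b. Other alternatives were other scaling, no filter or a stricter one on low counts (filterByExpr with a minimum count of 50), either replicate number as a block, other thresholds and each library left out.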

Additional observations from a re-analysis of the deposited data

How the results depend on the processing

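Over all genes, edgeR's quasi-likelihood test called 0 (671 at an unadjusted p under 0.05), and so did limma-voom, other scaling, the stricter filter, either replicate block, other thresholds and each library left out. DESeq2 called 370 without shrinkage and 231 with shrunken fold changes, and edgeR without a filter on low counts called 2. Of the members, 1 was called by DESeq2 without shrinkage, which was Eed (adjusted p = 0.0929), and 0 in every other setting, shrunken DESeq2 included (adjusted p = 0.127 for Eed). The number of members with an unadjusted p under 0.05 was 1, and 0 with library totals alone, without a filter on low counts and with the library-number replicate block, and it ranged from 0 to 1 with each library left out: it was Bmi1 without BALB/c replicate 1 and Eed without BALB/c replicate 3. With the title-number replicate block it was also 1, but that gene was Suz12 and not Eed. Of the other machinery genes, 0 were called in any setting. BALB/c and SKG libraries lay apart for 2 members (13.9% of all genes), for 1 (Eed) with median-ratio factors (13.8%), and for 2 to 3 with each library left out (20.7% to 25.8%).

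The direction of a member's difference turned in 10 of 135 refits, all for genes with small differences. Ezh1 was at -0.018 with limma-voom, -0.034 with the title-number replicate block and -0.041 with the library-number replicate block, and Ezh2 at -0.15 with the latter. With each library left out, the log2 fold change ranged from -0.41 to 0.27 for Ezh1, from -0.15 to 0.39 for Ezh2, from -0.051 to 0.53 for Kdm6a and from -0.54 to 0.22 for Ring1. The cause was not tested. The library-number block leaves 1 library of each genotype without a partner. No member reversed with DESeq2 or under another scaling or filter. The 95% intervals of 8 of the 9 members include no change. Counting error covers reads and not the molecules captured from about 1000 cells, which are not known.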
